A study of Mus musculus with 8 samples.

Results

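The genes described here are 10 genes by which inhibitory interneurons of the cerebral cortex are recognised, *Sst*, *Npy*, *Cck*, *Pvalb*, *Calb1*, *Reln*, *Gad1*, *Gad2*, *Slc32a1* and *Lhx6*, out of 27962 gene names on the array. They were chosen by name, and all 15 probes that carry one of these names were taken. For each gene the probe with the highest mean signal over all channels leads. The 10 leading probes were well above background in all 16 channels, as was a further *Gad1* probe, whereas the other 4 probes (of *Cck*, *Reln*, *Gad1* and *Lhx6*) were well above background in 0 to 8 of the 16 channels.

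Gene expression was measured on 8 two-colour arrays in the ipsilateral hemisphere of male C57BL/6J mice, aged 8 to 12 weeks per the labels (the methods give a single age within that range), after permanent middle cerebral artery occlusion (PMCAO) with an intraluminal filament or after sham operation. All mice received an intracerebroventricular injection of 1 μL, either saline or 1 pmol of the neuropeptide PACAP38, and tissue was taken at 6 h or 24 h. Only PMCAO mice with a neurological grade of 1 or 2 were pooled. The 8 groups (sham or PMCAO, saline or PACAP38, 6 h or 24 h) each gave 1 pool of RNA from 3 mice, with 300 ng from each. PACAP38 and saline pools of one surgery and time shared 2 arrays with the dyes exchanged, so the 2 arrays of a comparison carry the same RNA and count as 1 replicate. The hemisphere was taken without olfactory bulb and cerebellum and holds infarct core, penumbra and non-ischemic tissue together, and in such tissue fewer cells of a type and less RNA per cell cannot be told apart.

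Cortical interneurons make GABA, the main inhibitory transmitter of the forebrain. *Gad1* and *Gad2* encode the enzymes that make GABA from glutamate, and *Slc32a1* encodes the carrier that loads it into synaptic vesicles. Classes of interneurons are told apart by the peptides somatostatin (*Sst*), neuropeptide Y (*Npy*) and cholecystokinin (*Cck*), by the calcium-binding proteins parvalbumin (*Pvalb*) and calbindin (*Calb1*) and by reelin (*Reln*), a secreted matrix protein, while the transcription factor *Lhx6* marks those born in the medial ganglionic eminence. None of these genes belongs to cortical interneurons alone: striatal neurons also carry *Gad1*, *Gad2*, *Slc32a1* and *Calb1*, and cortical pyramidal cells carry *Cck*.

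PACAP38 acts on receptors that raise cyclic AMP, and the somatostatin gene is a classic target of the cyclic AMP response element TGACGTCA. The sequences upstream of a listed transcript start of 3 of the genes are shown because they hold this element or its shorter form. The shorter form is TGACG, or CGTCA on the reverse strand, and it overlaps the full element. The sequences are from RefSeq (GRCm38.p6), which gave 250 upstream bases for 12 starts of 9 of the 10 genes, *Calb1* being the exception. The element is in capitals, and each run reads 5′ to 3′ on the strand of the gene. *Sst* is at chr16:23890845-23890924 on the minus strand, *Cck* at chr9:121495700-121495779 on the minus strand and *Gad2* at chr2:22622247-22622326 on the plus strand. For *Sst* and *Gad2* the listed start and the run shown lie inside the span of the gene given below.
Sst: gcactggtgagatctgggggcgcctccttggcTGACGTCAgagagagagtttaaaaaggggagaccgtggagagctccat
Cck: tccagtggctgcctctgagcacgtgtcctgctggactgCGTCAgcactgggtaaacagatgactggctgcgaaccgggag
Gad2: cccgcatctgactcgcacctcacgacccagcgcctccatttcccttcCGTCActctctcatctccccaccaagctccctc
The full element was found in 1.55% of the 32851 upstream sequences of the mouse table and the shorter form in 17.8%. The upstream sequences of *Gad1*, *Slc32a1*, *Npy*, *Pvalb*, *Reln* and *Lhx6* held no match to these letters. The probe that measured *Npy* (chr6:49822710-49829507, GRCm38.p6) has 60 bases and is shown because *Npy* was the gene of the group called higher after PMCAO at 6 h in the fit over all arrays.
Npy probe: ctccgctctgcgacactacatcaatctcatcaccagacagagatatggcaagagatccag

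Before the results, the sham 6 h array with PACAP38 in Cy3 has to be described, since it stood apart from the others. Outlier spots made up 10.7% of that array, against 0.323 to 3.09% on the other 7 arrays. The 2 sham 6 h arrays carried the same RNA, yet their scaled log2 signals differed with an SD of 1.27 in Cy3 and 1.4 in Cy5 over all probes, compared with 0.420 to 0.625 for the 2 arrays of each other group. For *Gad1* the level (log2 signal minus the 75th percentile of its channel) was 6.83 and 6.80 in the saline and PACAP38 pools on that array and 5.29 and 5.33 on the other array of the same RNA. Both sham 6 h pools were read on that array, so its deviation does not show as spread between pools, and the p-values of PMCAO over sham at 6 h are too small. Each 6 h value is therefore also given from the 4 arrays with PACAP38 in Cy5 alone, which leaves that array out and keeps the dyes balanced between sham and PMCAO. Leaving out that array alone is a further setting, in which each sham 6 h pool is left with 1 dye. The 2 pools of one surgery and time were always hybridised together, so calls of PMCAO over sham are also given with the array as a random block and dye as a term, over all arrays or without that array. The block fits take the 2 arrays of the same RNA as separate samples, which makes their p-values too small in that respect. The correlation between the channels of an array was estimated at 0.592 over all arrays and at -0.12 without that sham array. A block with -0.12 makes no allowance for pools that shared an array, so p-values of that fit are too small in this respect too. The 6 h and 24 h arrays were also read with different software versions, so a change of level from 6 h to 24 h cannot be told apart from the array batch.

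**Figure D1:**
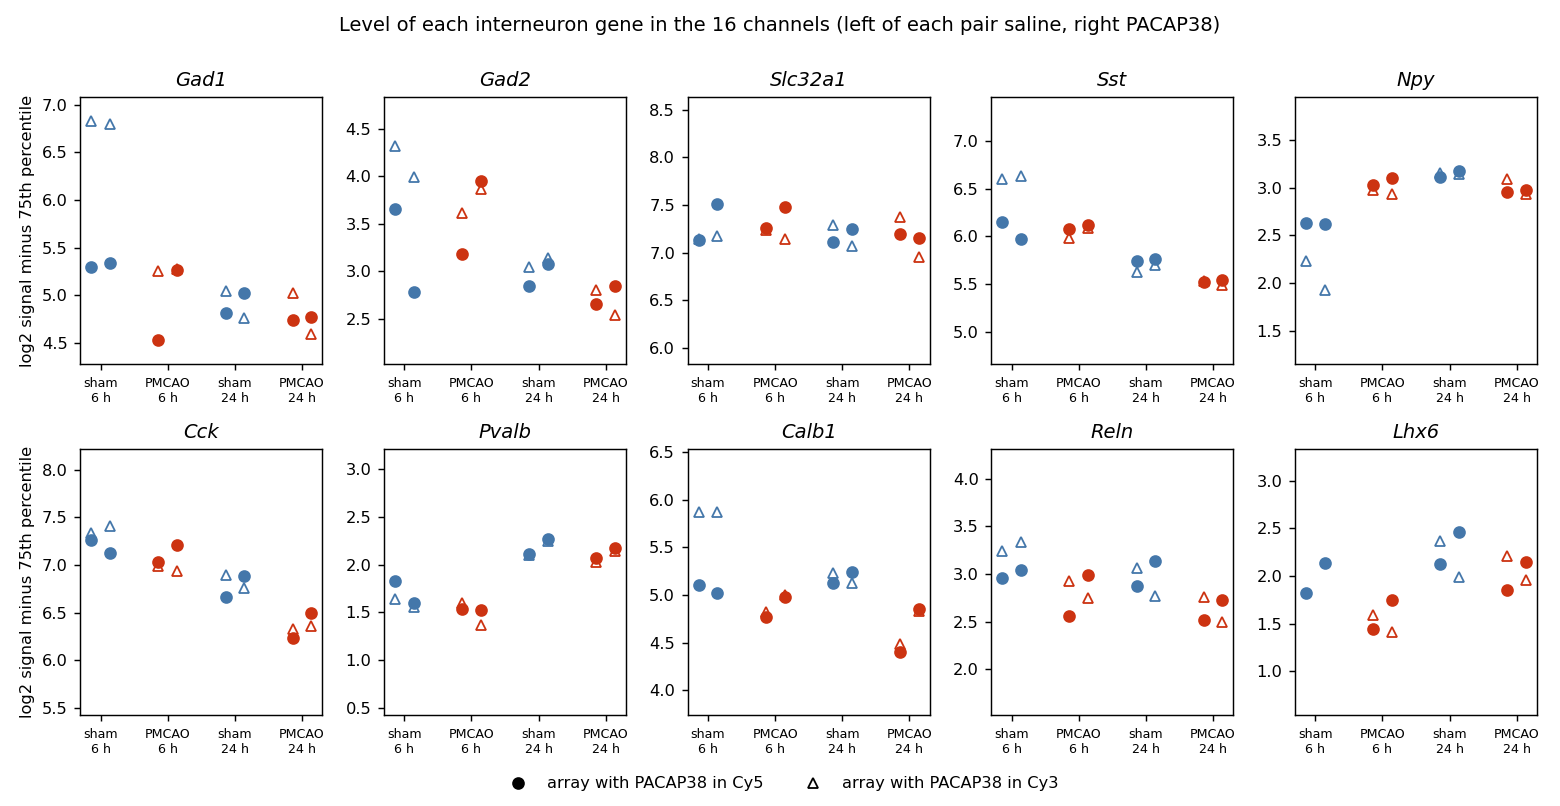
Level of each gene (leading probe; log2 signal minus the 75th percentile of its channel) in the 16 channels by surgery and time, with saline on the left and PACAP38 on the right of each pair. Circles are the arrays with PACAP38 in Cy5 and triangles those with PACAP38 in Cy3; all panels span 2.8 log2 units. The sham 6 h triangles of Gad1 lie at 6.83 and 6.80, above the other 14 values, and Lhx6 has no triangle there because its spot was an outlier.

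At 24 h, where no array stood apart in this way, all 9 interneuron genes with a value on all arrays had a lower mean level after PMCAO, by 0.01 to 0.54 on the log2 scale, but none of them passed the test over all arrays. In limma with Benjamini-Hochberg adjustment over all probes, 3.53% of the 36121 probes passed at 24 h in either direction, and 0 of 9 genes did. At an unadjusted p under 0.05 there were 3 genes (*Calb1*, *Cck* and *Reln*) and 7747 probes. The median log2 difference of the 9 genes was -0.18, against -0.002 over all probes. On the 4 arrays with PACAP38 in Cy5 all 10 genes were below 0, with a median of -0.21, and again 0 passed, as did 0.838% of probes. With the array as a random block, 0 of 9 genes and 0.147% of probes passed over all arrays. After normexp, loess and Aquantile normalization of all arrays, *Calb1* (-0.45), *Cck* (-0.43) and *Reln* (-0.25) passed at 24 h, with adjusted p of 0.043, 0.0071 and 0.042, as did 12.3% of probes, but on the arrays with PACAP38 in Cy5 that normalization called 0. The same 3 genes passed at 24 h in the block fit without the sham 6 h array described above (adjusted p of 0.0044, 0.0074 and 0.015), where 14% of probes passed. The block correlation in that fit was -0.12, so it made no allowance for pools read on the same array.

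Of the calcium-binding proteins, *Calb1* (chr4:15881264-15906709), a buffer of cytosolic calcium, had the largest difference at 24 h. Its level was 5.18 in both sham pools, saline and PACAP38, and 4.44 and 4.84 in the PMCAO saline and PMCAO PACAP38 pools. Both PMCAO pools were below both sham pools, with the saline pool the lowest. The difference was -0.54 ± 0.15 (limma estimate ± SE, 2 pools against 2), or 0.688-fold, with an adjusted p of 0.11. Over all 36121 probes, both PMCAO 24 h pools lay outside the range of all other pools in 20.4%. The share in which they lay apart from the 2 sham 24 h pools alone was not counted. Pools of a group shared their arrays, so such separation is given as a description here and below. *Pvalb* (chr15:78191112-78206400), the calcium-binding protein of fast-spiking interneurons, was at 2.10 and 2.26 in sham and 2.05 and 2.16 in PMCAO, and the ranges overlapped.

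Of the peptide genes at 24 h, *Cck* (chr9:121489824-121495694) was at 6.77 and 6.82 in the sham saline and sham PACAP38 pools and at 6.28 and 6.43 after PMCAO. The difference was -0.44 ± 0.11 with an adjusted p of 0.097. *Sst* (chr16:23889573-23891342) was at 5.68 and 5.73 in sham and 5.53 and 5.52 after PMCAO, a difference of -0.18 ± 0.11 with an adjusted p of 0.42. *Npy* was at 3.13 and 3.16 in sham and 3.02 and 2.95 after PMCAO, a difference of -0.16 ± 0.11 with an adjusted p of 0.51. Neither *Sst* nor *Npy* passed.

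*Reln* (chr5:21884454-22344705) was at 2.97 and 2.95 in the sham pools at 24 h and at 2.64 and 2.61 after PMCAO. The difference was -0.34 ± 0.11, with an adjusted p of 0.17. The leading *Lhx6* probe (chr2:36081950-36105992) was at 2.25 and 2.23 in sham and 2.03 and 2.05 after PMCAO at 24 h. Its spot was an outlier on the sham 6 h array described above, so the fit over all arrays dropped it, and on the arrays with PACAP38 in Cy5 the difference at 24 h was -0.30 ± 0.14 with an adjusted p of 0.50.

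None of the genes of GABA synthesis and vesicle loading passed at 24 h. *Gad1* (chr2:70561303-70602014) was at 4.93 and 4.89 in sham and 4.88 and 4.68 after PMCAO. *Gad2* (chr2:22621015-22693877) was at 2.95 and 3.11 in sham and 2.73 and 2.69 after PMCAO. *Slc32a1* (chr2:158607260-158615747) was at 7.20 and 7.16 in sham and 7.29 and 7.05 after PMCAO, and the groups overlapped. The differences were -0.13 ± 0.16 for *Gad1*, -0.32 ± 0.26 for *Gad2* and -0.01 ± 0.14 for *Slc32a1*, with adjusted p of 0.76, 0.57 and 0.97.

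At 6 h the fit over all 8 arrays called 3 of 9 genes: *Gad1* and *Calb1* were lower after PMCAO and *Npy* was higher. On the arrays with PACAP38 in Cy5, which leave out 4 arrays, 0 of 10 genes passed, and with the array as a random block 0 of 9 did. With the sham array described above left out alone, 0 of 10 genes and 1.3% of 39400 probes passed. In the block fit without that array 2 of 10 genes passed, *Npy* and *Lhx6*, and 13.9% of probes did, so *Gad1* and *Calb1* passed in neither setting without it. Over all probes, the fit over all arrays called 29.1% of 36121 probes higher and 17.7% lower at 6 h, the arrays with PACAP38 in Cy5 called 0.853% of 40202 in either direction, and the array block called 0.390%. The median of all probes was shifted by 0.20 at 6 h under the 75th percentile and by 0.002 after quantile normalization, so 6 h values over all arrays have to be read against that shift.

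*Gad1* was at 6.06 and 6.07 in the sham saline and sham PACAP38 pools at 6 h and at 4.89 and 5.27 after PMCAO, with the mean of both arrays. The difference was -0.98 ± 0.16 with an adjusted p of 0.0057, and the second bright *Gad1* probe gave -0.98 ± 0.18. On the arrays with PACAP38 in Cy5, sham was at 5.29 and 5.33 and PMCAO at 4.53 and 5.27. There the difference was -0.42 ± 0.22 with an adjusted p of 0.36 for the leading probe and -0.19 ± 0.25 with an adjusted p of 0.73 for the second. With the array as a random block the adjusted p of the leading probe was 0.16. With the sham array alone left out the leading probe gave -0.23 ± 0.17 (adjusted p = 0.50) and the second 0.07 ± 0.18 (adjusted p = 0.88), so the sign of the second probe turned.

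*Npy* encodes a peptide of many cortical and striatal interneurons that also acts on vessels and feeding circuits. Its level was 2.43 and 2.27 in the sham saline and sham PACAP38 pools and 2.997 and 3.02 after PMCAO. The difference was 0.65 ± 0.11, or 1.57-fold, with an adjusted p of 0.0067. On the arrays with PACAP38 in Cy5, sham was at 2.63 and 2.62 and PMCAO at 3.02 and 3.098. That is a difference of 0.43 ± 0.14, with an unadjusted p of 0.024 and an adjusted p of 0.19. Over all probes on those arrays, both sham 6 h pools lay outside the range of all other pools in 18.1%, with *Npy* and *Gad1* among them. After normexp, loess and Aquantile normalization of those same arrays the difference was 0.42 and the adjusted p 0.011, and *Npy* was then the one gene of the group that passed. Over the 75th percentile and quantile scalings of those arrays it did not pass. With the sham array alone left out the difference was 0.38 ± 0.11 with an adjusted p of 0.15, and in the block fit without that array it was 0.38 ± 0.08 with an adjusted p of 0.014.

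*Calb1* was at 5.49 and 5.44 in sham and 4.80 and 4.99 after PMCAO at 6 h, a difference of -0.57 ± 0.15 with an adjusted p of 0.024. From the other 4 arrays, those with PACAP38 in Cy5, it was -0.18 ± 0.18, with an adjusted p of 0.63, and with the sham array alone left out it was -0.17 ± 0.16, with an adjusted p of 0.61. *Sst* went from -0.27 ± 0.11 over all arrays to 0.03 ± 0.15 on the arrays with PACAP38 in Cy5, neither of which passed. *Lhx6* had a value at 6 h only on the arrays with PACAP38 in Cy5 for sham. It was at 1.82 and 2.14 in sham and 1.44 and 1.75 after PMCAO there, a difference of -0.38 ± 0.14 with an adjusted p of 0.22. Without the sham array alone it was -0.43 ± 0.14 (adjusted p = 0.17), and the block fit without that array gave -0.43 ± 0.09 (adjusted p = 0.012). The other genes, *Cck*, *Reln*, *Pvalb*, *Gad2* and *Slc32a1*, differed by -0.34 to 0.04 over all arrays and by -0.23 to 0.35 on the arrays with PACAP38 in Cy5, and none passed. Of the 4 dim probes, those of *Cck*, *Gad1* and *Lhx6* were called higher at 6 h over all arrays, opposite to the leading *Gad1* probe, and 0 of the 4 passed on the arrays with PACAP38 in Cy5.

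**Figure D2:**
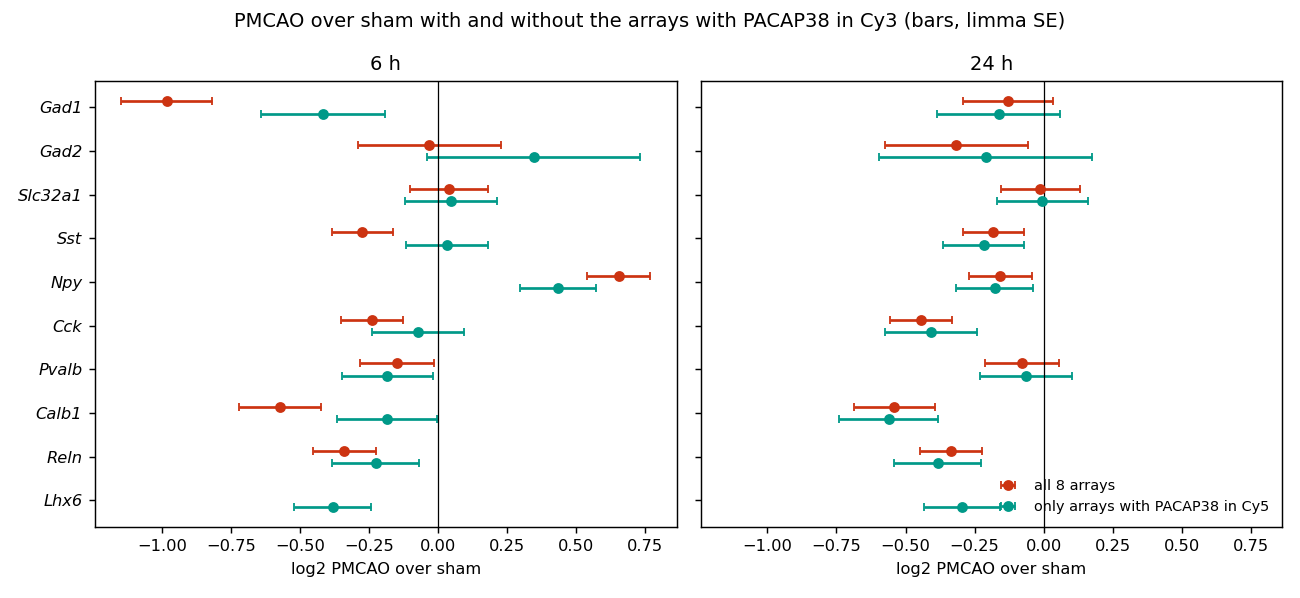
Difference in log2 level between PMCAO and sham at 6 h (left) and 24 h (right) for the leading probe of each gene, with bars of 1 SE from limma. Red values are from all 8 arrays and green values from the 4 arrays with PACAP38 in Cy5; at 6 h Gad1 moves from -0.98 to -0.42 and Calb1 from -0.57 to -0.18, while at 24 h the 2 sets of values lie close to each other. Lhx6 has no red value because a spot was dropped.

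Over both times together 0 of 9 genes passed, as did 2.28% of all probes, with 4 genes (*Calb1*, *Cck*, *Reln* and *Gad1*) at an unadjusted p under 0.05. *Calb1* had the lowest adjusted p, 0.072, at -0.56 ± 0.13. In the block fit without the sham 6 h array that stood apart, *Calb1*, *Cck*, *Reln* and *Lhx6* were called lower over both times, where 13.3% of all probes passed. The difference between the 24 h and 6 h effects passed for *Gad1* (0.85 ± 0.23, adjusted p = 0.042) and *Npy* (-0.81 ± 0.16, adjusted p = 0.019), where 28.7% of all probes passed. From the 4 arrays with PACAP38 in Cy5 it was 0.25 ± 0.32 for *Gad1* and -0.61 ± 0.20 for *Npy*, with adjusted p of 0.83 and 0.33, and 0.303% of all probes passed. With the sham array alone left out it was 0.10 ± 0.24 for *Gad1* and -0.54 ± 0.16 for *Npy*, with adjusted p of 0.92 and 0.23, and in the block fit without that array *Npy* passed (adjusted p = 0.015), as did 8.06% of all probes.

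The comparison of PACAP38 with saline asks whether the peptide changed these genes in the sham or the ischemic hemisphere. Within a comparison there is 1 pool a group and no test, and values are the mean of the 2 arrays. Of 39 values, 9 genes in sham at 6 h and 10 genes in each other comparison, 38 lay between 0.75-fold and 1.5-fold, and the median size was 0.056 on the log2 scale. In 21 of the 39 the 2 arrays, which carried the same RNA, differed in the sign of the ratio. Over all probes the ratios of the 2 arrays correlated at -0.148 (sham) and -0.14 (PMCAO) at 6 h. At 24 h the correlations were -0.417 (sham) and 0.053 (PMCAO), so the ratios did not repeat between arrays. Of all probes, 11.5% (sham) and 12.3% (PMCAO) at the 6 h time point and 5.62% (sham) and 11.2% (PMCAO) at the 24 h time point were above 1.5-fold or below 0.75-fold.

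The value past these limits was that of *Gad2*, which encodes the GABA-making enzyme found mainly at nerve terminals. In sham at 6 h its log2 ratio of PACAP38 over saline was -0.865 on the array with PACAP38 in Cy5 and -0.324 on the other, a mean of 0.662-fold. In the PMCAO pools of that time the ratios of *Gad2* were 0.747 and 0.236, a mean of 1.41-fold. At 6 h both arrays of a comparison had the same sign, and the sign was opposite in sham and PMCAO. The share of all probes with the same sign on both arrays was not counted. At 24 h the means of *Gad2* were 0.16 in sham and -0.03 in PMCAO. The difference between PMCAO and sham in the PACAP38 effect on *Gad2* was 0.45 ± 0.39 over the 2 times (limma, adjusted p = 0.80).

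*Calb1* was the gene with the highest ratio at 24 h after PMCAO. It was 0.455 and 0.364 on the 2 arrays there, a mean of 1.33-fold, and 0.192 and 0.161 after PMCAO at 6 h. The sham means were -0.045 (6 h) and 0.005 (24 h). The difference between PMCAO and sham was 0.31 ± 0.11, and its adjusted p was 0.78. *Gad1* in PMCAO at 6 h had a mean of 0.37 that rested on the array with PACAP38 in Cy5, with 0.725 there and 0.006 on the other.

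*Sst*, whose upstream sequence holds the full cyclic AMP response element, had mean log2 ratios of -0.07 (sham) and 0.06 (PMCAO) at 6 h, and of 0.045 (sham) and -0.004 (PMCAO) at 24 h. Its mean over the 4 comparisons was 0.01 ± 0.03. *Npy*, *Cck*, *Pvalb* and *Reln* lay between -0.16 and 0.16 in every comparison. Over the 4 comparisons together, no gene of the 9 and 0.0% of the 36121 probes passed in limma, and 1782 probes and no gene of the group had an unadjusted p under 0.05. For the difference between PMCAO and sham in the PACAP38 effect the share was likewise 0.0%, with 2337 probes and no gene of the group at an unadjusted p under 0.05. After normexp and loess, 0 probes passed in either test, and 1595 and 1519 had an unadjusted p under 0.05, 1 gene of the group among the 1519.

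**Figure D3:**
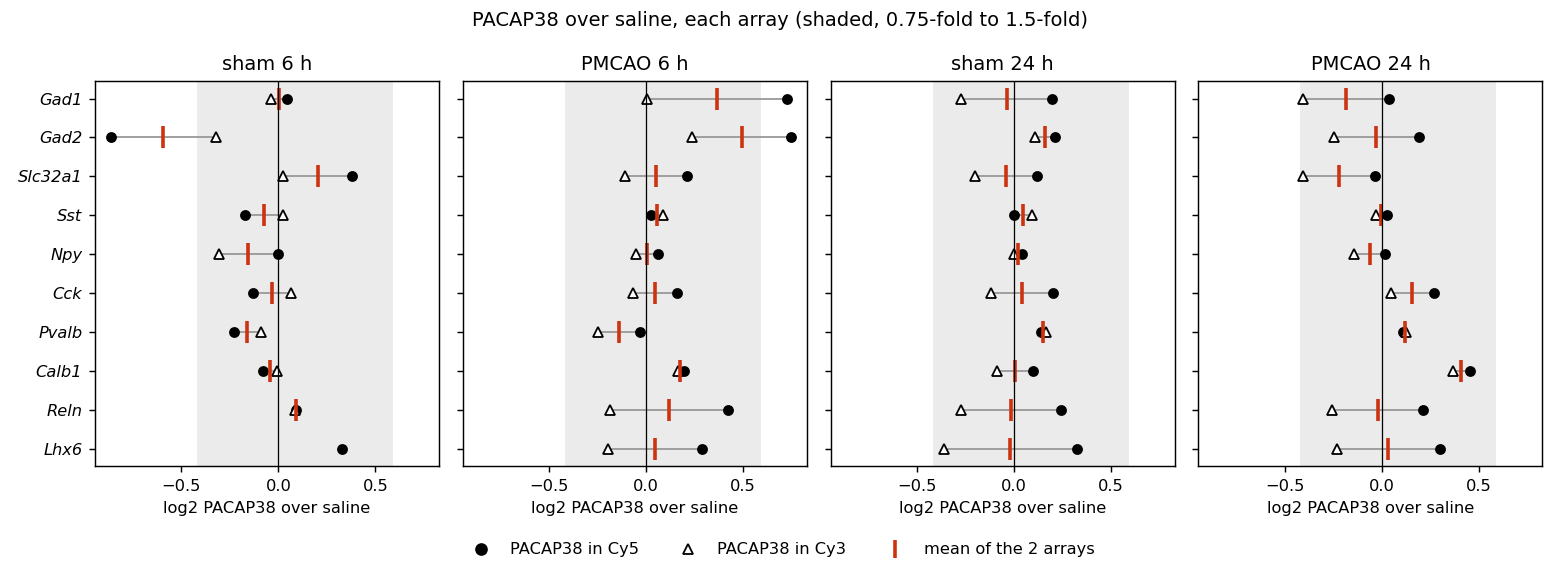
Log2 ratio of PACAP38 over saline for the leading probe of each gene in the 4 comparisons. Circles are the array with PACAP38 in Cy5, triangles the array with PACAP38 in Cy3 and red bars their mean; the shaded band runs from 0.75-fold to 1.5-fold. The mean of Gad2 in sham at 6 h, -0.595, lies outside the band, and in many rows the circle and the triangle lie on opposite sides of 0.

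Other genes of interneurons and of the pathways around these 10 genes were read at 24 h in the same fit. Genes of a list without a value on all arrays were not tested there. Of 11 tested genes that mark interneuron classes, 10 were below 0, with a median of -0.24, and 1 passed, *Cort*. This gene (chr4:149125034-149126763) encodes cortistatin, a peptide related to somatostatin that also binds its receptors. *Cort* was at 0.05 and 0.13 in the sham saline and sham PACAP38 pools at 24 h and at -0.87 and -0.74 after PMCAO, a difference of -0.90 ± 0.12 with an adjusted p of 0.027. From the arrays with PACAP38 in Cy5 alone it was -0.72 ± 0.15 with an adjusted p of 0.14, and with the array as a random block over all arrays it did not pass (adjusted p = 0.66), whereas in the block fit without the sham 6 h array that stood apart it did (adjusted p = 0.0011). At 6 h the difference of *Cort* was 0.35 ± 0.12 over all arrays (adjusted p = 0.065) and -0.17 ± 0.15 on the arrays with PACAP38 in Cy5 (adjusted p = 0.56). The difference between its 24 h and 6 h effects was -1.25 ± 0.18 over all arrays (adjusted p = 0.0087) and -0.54 ± 0.21 on the arrays with PACAP38 in Cy5 (adjusted p = 0.40).

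Of 8 tested receptors for somatostatin, neuropeptide Y and cholecystokinin, all 8 were below 0 at 24 h, with a median of -0.49. Among them *Sstr3* was well above background in only 6 of the 16 channels. Of the 8 receptors, 1 passed. That was *Sstr2* (chr11:113619327-113626028), a somatostatin receptor. It was at 1.37 and 1.41 in sham and 0.65 and 0.56 after PMCAO, a difference of -0.78 ± 0.13 with an adjusted p of 0.043. The arrays with PACAP38 in Cy5 alone gave -0.79 ± 0.20 with an adjusted p of 0.22, and *Sstr2* did not pass with the array as a random block over all arrays (adjusted p = 0.56) but did in the block fit without that sham array (adjusted p = 0.00065). Of 7 interneuron transcription factors 5 were below 0, with a median of -0.15, of 2 genes of GABA uptake and breakdown 1 was, and of 2 genes of reelin reception 1 was, and 0 of these passed. At 6 h the fit over all arrays called 6 interneuron class genes higher and 2 lower of 11, 5 transcription factors lower of 7, and 3 receptors higher and 3 lower of 8, beside the 29.1% of all probes called higher and 17.7% called lower in that fit. With the array as a random block 0 genes of these 3 lists passed at 6 h. From the arrays with PACAP38 in Cy5 alone, 1 of 16 interneuron class genes was higher, and 0 of 12 transcription factors and 0 of 9 receptors passed.

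Markers of other neurons also had medians below 0 at 24 h. Over tested genes the median was -0.60 for 10 of the 12 striatal medium spiny neuron genes and -0.21 for 6 of cortical projection neurons. It was -0.25 for 4 of the 8 genes of all neurons, and 0 genes of these lists passed. The tested genes above 0 were the striatal *Ppp1r1b* (0.12), the projection neuron genes *Nptx1* (0.11) and *Nrgn* (0.03), and the pan-neuronal *Rbfox3* (0.21). Summed on the linear scale, the level of the 9 interneuron genes at 24 h was 403 to 405 in the sham pools and 344 to 356 in the PMCAO pools. Such a sum rests mostly on the brightest genes, *Slc32a1* and *Cck*, and pyramidal cells also carry *Cck*. On the arrays with PACAP38 in Cy5 the sum of 10 genes was 388 to 431 in sham and 343 to 366 after PMCAO. Over all arrays the striatal sum was 186 to 189 in sham and 123 to 157 after PMCAO, and the pan-neuronal sum 197 to 199 and 166 to 177. The projection neuron sum was 178 to 180 in sham and 165 to 200 after PMCAO, and these overlapped. The part of these cell types in the interneuron values was not tested. All 8 pan-neuronal genes, all 12 striatal genes and 5 of 6 astrocyte genes were well above background in all 16 channels.

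**Figure D4:**
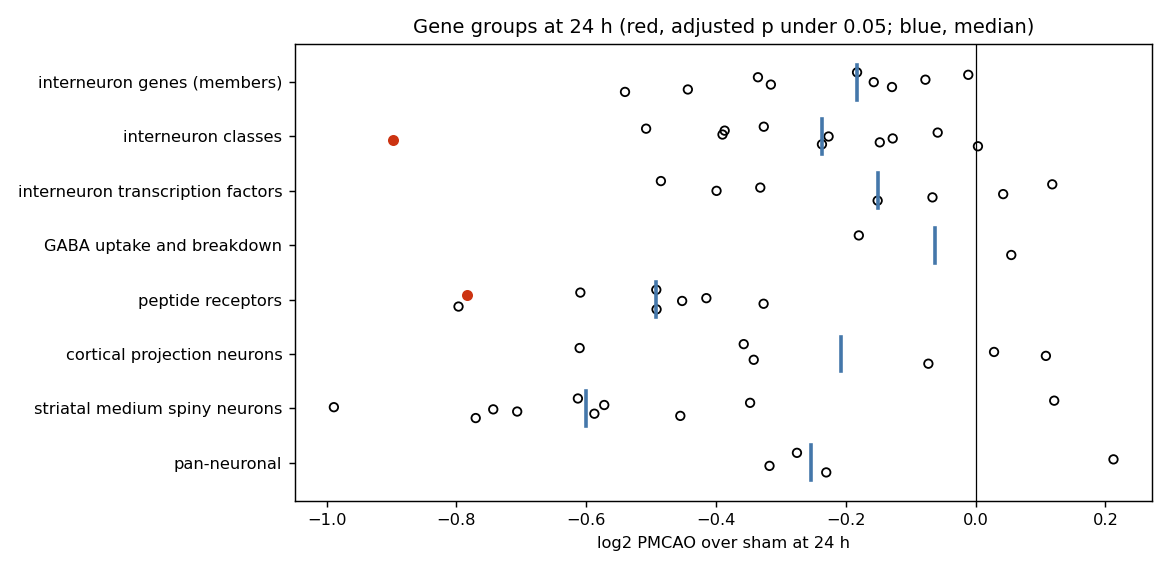
Log2 difference between PMCAO and sham at 24 h for the tested genes of the interneuron group and of 7 other gene lists, 1 point per gene. Red points passed the adjusted p of 0.05 (Cort at -0.90 and Sstr2 at -0.78), blue lines are list medians; the medians of all 8 lists lie below 0.

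For the remaining lists at 24 h, 0 genes passed of 4 thalamic, 9 hypothalamic and 4 Purkinje cell genes. Of 7 genes of the acute response to ischemia 6 passed, all higher, with a median of 3.93, and on the arrays with PACAP38 in Cy5 3 passed with a median of 4.07, as did 3 with the array as a random block. The 3 microglia and macrophage genes had a median of -0.41, with *Aif1* at -0.64 (adjusted p = 0.088), *Cx3cr1* at -0.41 (adjusted p = 0.17) and *Cd68*, a lysosomal protein of phagocytes, at 1.06 ± 0.13 (adjusted p = 0.023). *Cd68* did not pass on the arrays with PACAP38 in Cy5 (adjusted p = 0.072) or with the array as a random block (adjusted p = 0.45). Of 4 astrocyte genes 2 were below 0, *Aqp4* (-0.39) and *Gja1* (-0.30), *Gfap* was at 1.003 (adjusted p = 0.060), and *Aldh1l1* passed over all arrays. The *Aldh1l1* call rests on 1 sham 24 h array whose spot was not well above background in either channel. On the other sham 24 h array its level was 3.76 and 3.87, against 3.71 to 3.90 after PMCAO, it did not pass with the array as a random block (adjusted p = 0.77), and no fold is given.

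The genes whose level followed *Sst*, *Gad1* and *Pvalb* most closely were looked up among probes well above background in all channels, by Pearson's r over the 8 pools centred within each time. With 8 points and 16191 probes high values arise easily, and they are given as a description. Both sham 6 h pools include the array that stood apart, where *Gad1* was at 6.83 and 6.80, against 5.29 and 5.33 on the other array. How far the r values over all arrays rest on that array was not tested. For *Sst* the 3 highest were *Slc16a4*, *Rshl3* and *Hrh1* (r = 0.992 to 0.995), for *Gad1* *Tmem64*, *Wtip* and *Ttc9c* (r = 0.9957 to 0.9985), and for *Pvalb* *Vit*, *Poglut3* and *Stx8* (r = 0.942 to 0.955). On the arrays with PACAP38 in Cy5, 3 different genes led for each of them, with r of 0.979 to 0.996.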

How the data were processed

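Per the labels and methods, RNA labelled with Cy3 and Cy5 was hybridised to Agilent whole mouse genome arrays and read with Feature Extraction (per the file headers, version 9.5.1.1 for 6 h arrays, 9.5.3.1 for 24 h arrays). For every spot the authors deposited a log10 ratio, Cy5 to Cy3, background-subtracted and dye-normalized by that software, and intensity columns with mean, background and processed signals. The authors also deposited a table that holds the ratio of Cy5 over Cy3 on arrays with PACAP38 in Cy5 and a score, minus that ratio, on the others, used only as an alternative.

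Control and outlier spots were left out and spots of a probe averaged. Log10 ratios were turned to log2 PACAP38 over saline. For PMCAO over sham, the log2 processed signal minus the 75th percentile of its channel was averaged over the 2 dyes of a pool, and the 8 pools were tested with limma 3.58.1 (R 4.3.3; Benjamini-Hochberg at 0.05; 36121 probes with all values), saline and PACAP38 pools of one surgery and time serving as its replicates. The labels number dye-exchanged arrays as separate pools, but the methods state the same RNA, so they were 1 replicate. The number of arrays limits the precision. The fits were tested on simulated data with independent noise and with changes far larger than those of these genes. The simulation held no deviation shared by pools of one array, so it could not show the fault described for 6 h.

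Members, lists and tests were chosen with earlier results of these data known. Named genes are all members, the 3 probes most like *Sst*, *Gad1* and *Pvalb*, and, of the other lists, genes that passed at 24 h or over both times. Genes of those lists called at 6 h alone, and those of the acute response, were only counted. That narrowing, and alternatives that leave out arrays (4 arrays, or 1 sham array alone) or use the array as a block, were chosen after seeing the data. Gene names came from RefSeq for 22951 of 41174 probes and from the files for 11758. Tables were made with Python 3.11.15.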

Additional observations from a re-analysis of the deposited data

Results flagged for a closer look

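The difference between the PMCAO effects at 24 h and 6 h passed the test for 4 probes of these genes in the fit over all arrays. These were the 2 bright *Gad1* probes (0.853 and 0.940, log2, 24 h minus 6 h), *Npy* (-0.811) and the dim *Lhx6* probe (-1.632), which was well above background in 4 of 16 channels, all at 6 h. On the arrays with PACAP38 in Cy5, without the sham 6 h array that stood apart, the same differences were 0.253, 0.206, -0.611 and -0.851, and none of the 4 passed (adjusted p of 0.83, 0.90, 0.33 and 0.60). With that sham array alone left out they were 0.103, -0.107, -0.538 and -0.508, and none passed. With the array as a random block in addition, *Npy* passed (adjusted p = 0.015) and the other 3 did not.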

How the results depend on the processing

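Counts here are of genes of the group that passed, with the share of all probes that passed behind them. No called value of a leading probe changed sign under the alternatives run, whereas values that did not pass could, such as *Sst* at 6 h. Leaving out each pool in turn never removes the sham 6 h array that stood apart, since both sham 6 h pools were read on it. It is therefore no check of the 6 h calls. At 6 h, 3 genes passed over all arrays (46.8% of probes). That count was 0 on the arrays with PACAP38 in Cy5 (0.853%, and 0.944% after quantile normalization), 0 with the array as a random block (0.390%), 0 in only the Cy3 or only the Cy5 channels (0.0%), and 0 with the sham 6 h array that stood apart left out alone (1.3%). It was 2 without that array in the block fit (13.9%), 2 after quantile normalization (44.8%) and 1 after normexp, loess and Aquantile on the arrays with PACAP38 in Cy5 (16.7%). The count was 4 with outlier spots kept (51.6%) or with the mean of all probes of a gene (43.9% of gene means). It was 5 with dim probes left out (61.8%) or the remaining channel of a dropped outlier spot used (44.8%), and 6 on the arrays with PACAP38 in Cy3 (58.8%). At 24 h it was 0 (3.53%), 3 after normexp, loess and Aquantile on all arrays (12.3%) and 3 in the block fit without that array (14%), in both cases *Calb1*, *Cck* and *Reln*. Over both times it was 0 (2.28%), and 4 in the block fit without that array (13.3%). The difference of 24 h against 6 h passed for 2 genes (28.7%), and for 0 to 2 when each pool was left out. It passed for 0 with the array as a random block (0.00277%), in either dye alone, with that sham array alone left out (0.358%), and on the arrays with PACAP38 in Cy5 (0.303%, and 0.612% after quantile normalization), and for 1 after quantile normalization of all arrays (27.6%), after normexp, loess and Aquantile on the arrays with PACAP38 in Cy5 (4.68%) or in the block fit without that array (8.06%). The cause of the other changes was not tested. For PACAP38 over saline, 1 value lay past the fold limits, 3 on the array with PACAP38 in Cy5 alone and 0 on the other alone.

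The replicate number of the labels marks the dye orientation and does not pair the samples (correlations of array deviations of 0.238 between the 6 h groups and -0.022 to 0.006 otherwise). With the replicate block and dye as terms, 3 genes passed over both times instead of 0 (*Calb1*, *Cck* and *Reln*; 8.94% of probes), 1 instead of 2 for 24 h against 6 h (3.56%), and again 3 at 6 h (31.9%) and 0 at 24 h (2.94%). That fit took the 16 channels as samples with the pool as random block, and the correlation within a pool was estimated at -0.0901. The 2 readings of each RNA thus counted as separate samples and the shared array was not a term, so its p-values are too small. Over all probes, 16900 passed at 6 h, 343 on the arrays with PACAP38 in Cy5 and 141 with the array as a random block; at 24 h these were 1276, 337 and 53, and 4439 after normexp, loess and Aquantile. Over both times they were 823, 2 and 139, and 1704. Saline and PACAP38 pools served as replicates of a surgery, the pools of a group shared their arrays, and dim probes had signals close to background.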
